A study of Homo sapiens with 2 samples.

Results

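The miR-29 family comprises the microRNAs miR-29a, miR-29b and miR-29c, and its mature products were followed here in 2 cultures of UM-SCC6, a human line from an oral squamous cell carcinoma. The members were the table entries named miR-29a-3p, miR-29a-5p, miR-29b-3p, miR-29c-3p and miR-29c-5p, which are 5 of the 1178 entries with miRNA names. Entries named miR-29b-1-5p and miR-29b-2-5p, the other arms of the miR-29b hairpins, are not members and are given beside them for the arm comparison. The parental culture, UM-SCC6, was the unselected line. The other culture, UM-SCC6-M, came from cells that had crossed a matrix channel in a microfluidic chip, were regrown in a dish and passed through 3 rounds of this selection, and the labels call it highly invasive with some mesenchymal features. Both cultures carry the same cell line background, and the labels name no drug, transgene or genetic change in either. A single library was sequenced per culture. The differences given here have no replicates behind them, and the cultures were not tested against each other.

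Mature miRNAs are processed from hairpin RNAs. Either side of the hairpin, the 5p or the 3p arm, can leave a mature strand, and usually 1 strand is loaded into Argonaute while the other, the passenger, is mostly lost. The loaded strand pairs with messenger RNAs through its seed, bases 2 to 8, and lowers their output. The miR-29 3p strands are known for repressing transcripts of fibrillar and basement membrane collagens, elastin and fibrillin, and also those of DNA methyltransferases and of the survival factor MCL1. Collagen and other target transcripts were not measured in this series.

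The mature sequences are shown because the shared seed defines the family and because the 5p strands tell apart the hairpins from which miR-29b comes. Sequences are from RefSeq (GRCh38.p14), 5′ to 3′, with the seed in capitals.
miR-29a-3p: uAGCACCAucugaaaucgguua
miR-29b-3p: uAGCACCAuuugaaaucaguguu
miR-29c-3p: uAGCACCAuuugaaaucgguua
miR-29a-5p: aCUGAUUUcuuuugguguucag
miR-29c-5p: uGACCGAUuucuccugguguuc
miR-29b-1-5p: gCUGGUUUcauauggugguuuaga
miR-29b-2-5p: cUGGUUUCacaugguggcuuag

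The 3p strands of the 3 miRNAs shared the seed AGCACCA, and no other mature miRNA in the RefSeq table had it. None of the 4 5p strands shared its seed with another entry of that table. Counted from the 5′ end of miR-29a-3p, miR-29c-3p differed by the single substitution C10U. miR-29b-3p differed from miR-29a-3p by C10U, G18A, U21G and A22U and was 1 base longer. How many mismatches the authors' alignment allowed, and so how firmly it separates miR-29a-3p from miR-29c-3p, is not given in the sources used here.

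At its end, miR-29b-3p carries AGUGUU, 6 bases that are reported to direct import into the nucleus. miR-29b is also reported to turn over faster than miR-29a in dividing cells. Neither localization nor turnover was measured here. The motif is shown in capitals at bases 18 to 23.
miR-29b-3p: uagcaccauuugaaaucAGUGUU
Searched on the miRNA strand only, AGUGUU occurred anywhere in 13 of 2370 mature miRNA names of the RefSeq table (0.549%) and at the very end of 2 (0.0844%), which were miR-29b-3p and miR-519e-3p. It was in neither miR-29a-3p nor miR-29c-3p.

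The 4 hairpins lie in 2 pairs, all on the minus strand. They are printed with both mature strands in capitals, to show that MIR29B1 and MIR29B2 yield the same 3p strand from different loci.
MIR29A: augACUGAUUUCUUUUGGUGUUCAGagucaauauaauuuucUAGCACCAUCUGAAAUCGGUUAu
MIR29B1: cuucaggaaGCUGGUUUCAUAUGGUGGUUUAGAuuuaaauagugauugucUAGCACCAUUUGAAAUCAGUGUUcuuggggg
MIR29B2: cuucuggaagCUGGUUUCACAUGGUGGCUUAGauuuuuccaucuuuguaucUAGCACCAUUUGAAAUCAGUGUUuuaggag
MIR29C: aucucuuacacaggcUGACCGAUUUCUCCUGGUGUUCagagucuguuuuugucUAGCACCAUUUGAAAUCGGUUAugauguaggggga

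MIR29A lies at chr7:130876747-130876810 and MIR29B1 at chr7:130877459-130877539, with 648 bases between them (GRCh38.p14). In GENCODE release 29 both lie in introns of the long noncoding RNA gene AC016831.6. MIR29B1 also lies within an exon of LINC-PINT, a long noncoding RNA, and MIR29A overlaps the end of that exon by 2 bases. MIR29C lies at chr1:207801852-207801939 and MIR29B2 at chr1:207802443-207802523, with 503 bases between them. Both are inside an exon of their host transcript MIR29B2CHG. Reads of miR-29b-3p therefore cannot be assigned to chromosome 7 or chromosome 1, whereas each other product belongs to 1 locus.

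Levels are given as normalized reads, which are read numbers after the authors' scaling. A log2 ratio below 0 means a lower level in UM-SCC6-M than in UM-SCC6. The miRNA reads recovered from these values numbered 7699031 in UM-SCC6-M and 8182437 in the parental culture. Intervals in brackets are exact binomial 95% intervals, and those of differences between log2 ratios are 95% normal approximations from the read numbers. They cover counting error alone, and may be too narrow even for that, as PCR copies of a molecule are counted as separate reads. A difference is called where it is at least 2-fold and the higher library has 50 or more normalized reads. Epithelial marker miRNAs summed to 19622.6 normalized reads in UM-SCC6-M and 16344.3 in the parental culture. In that list of 7, miR-200b-3p led at 17481.0 against 12822.9 and miR-203a-3p was at 2.75 against a listed 0. miR-200a-3p (1344.0 against 2674.0), miR-429 (793.1 against 844.7) and miR-200c-3p (1.79 against 2.66) were lower in UM-SCC6-M, and miR-141-3p and miR-205-5p were not among the entries analysed here. The 6 fibroblast or stromal markers summed to 113.1 against 64.6. miR-199b-5p (87.2 against 42.0) and miR-199a-3p (21.9 against 10.5) were higher in UM-SCC6-M, miR-143-3p (4.06 against 10.4) and miR-199a-5p (listed at 0 against 1.73) were lower, and each library lists miR-145-5p and miR-214-3p at 0. The 3 blood markers with an entry summed to 17.9 against 24.6, with miR-142-3p and miR-451a listed at 0 in both. The endothelial marker miR-126-3p was at 519.9 against 968.3. The part of other cell types in the results below was not tested.

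All 5 members were at a lower level in UM-SCC6-M, and they differed widely in how much. Of the 288 miRNAs reaching 10 normalized reads in either library, 151 lay below a log2 ratio of 0 and 137 above it. A lower point value alone was therefore common, and only 3 of the 5 members reached that level. miR-29b-3p was lower by 8.33-fold, both 5p members by a little over 2-fold, and the abundant miR-29a-3p by 1.61-fold. The counting interval lay wholly below 0 for 4 of the 5 members, and 32.8% of the 543 miRNAs with known reads in both libraries had such an interval. Such intervals depend on read depth, and the 543 were not held to the minimum of 50 normalized reads. The remaining member, miR-29c-3p, had an interval that included 0. Of the 2 members that reached 50 normalized reads in either library, 1 was at least 2-fold lower, where 12.8% of the 179 miRNAs at this level were. That member, miR-29b-3p, reached this level through its parental value alone (365.6 against 43.8 in UM-SCC6-M).

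miR-29a-3p was the most abundant member, at 3072.6 normalized reads in UM-SCC6-M and 4939.3 in the parental culture. It ranked 36th among all miRNA entries in UM-SCC6-M and 27th in the parental culture. Counted in reads these were 25732 and 37170. The log2 ratio was -0.68 (-0.71 to -0.66), which is 1.61-fold lower (1.58 to 1.63). The interval is narrow because the counts are large, and it says nothing of variation between cultures. In order from the lowest log2 ratio, miR-29a-3p was 38th of the 179 miRNAs. Of the 66 miRNAs whose mean over both libraries was at least 1000 normalized reads, 10 had a lower ratio. Its direction was the same under each scaling tried, and scaling both libraries to their total reads gave -0.44.

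miR-29b-3p stood at 43.8 normalized reads in UM-SCC6-M and 365.6 in the parental culture. On 367 against 2751 reads, its log2 ratio was -3.06 (-3.22 to -2.90), 8.33-fold lower (7.48 to 9.33). By abundance it ranked 170th in UM-SCC6-M and 100th in the parental culture. Only miR-32-5p, at -3.27, had a lower ratio among the 179 miRNAs. In the authors' deposited table miR-29b-3p was the single miR-29 entry marked as selected, where its log2 fold change is -3.0604. miR-29a-3p, at -0.68487, was not marked. The mark contrasts a library with a library, without replicates.

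miR-29c-3p, which has the same seed, was a minor product. It had 3.94 normalized reads in UM-SCC6-M and 5.85 in the parental culture, from 33 and 44 reads. The log2 ratio was -0.56, and the interval of -1.27 to 0.11 included 0, so a difference was not detectable at this depth. For each miR-29c-3p read there were 780 reads of miR-29a-3p in UM-SCC6-M and 845 in the parental culture. These strands differ only by C10U, and whether miR-29a-3p reads with a base error were counted as miR-29c-3p was not tested. Levels of different miRNAs within a library also depend on how well each sequence takes the ligated adapters, a property common to both libraries in the ratio of 1 miRNA.

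**Figure D1:**
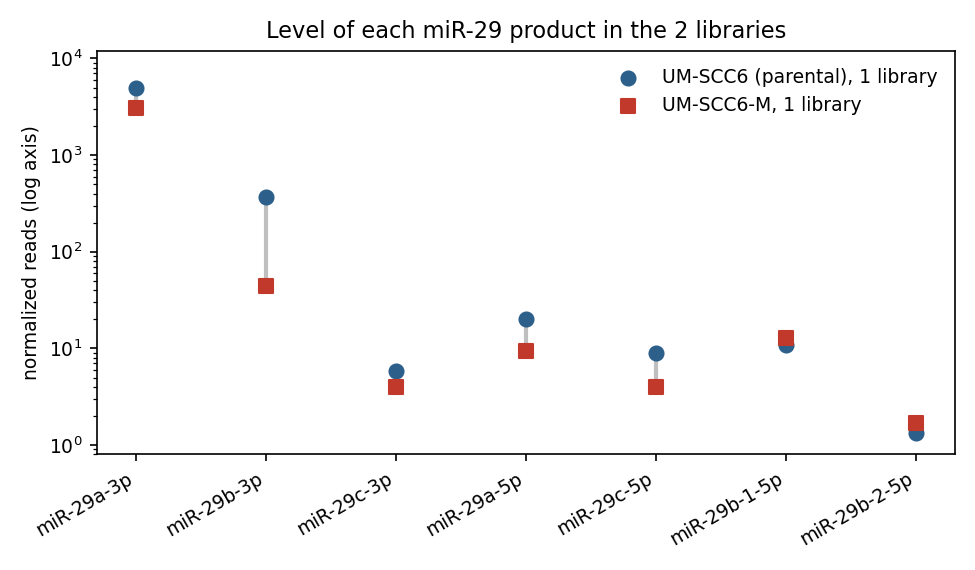
Normalized reads (log axis) of the 5 miR-29 members and the 2 miR-29b 5p entries, with 1 point per library. miR-29a-3p lies at 3072.6 and 4939.3, far above the other entries, and the widest gap between the libraries is that of miR-29b-3p, at 43.8 against 365.6.

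Between miR-29b-3p and miR-29a-3p, which share a seed, the log2 ratios differed by 2.37 (2.22 to 2.53), a 5.18-fold difference in ratio. The log2 ratio of miR-29b-3p minus that of miR-29c-3p gave -2.49 (-3.16 to -1.83), although the latter rests on few reads. miR-29a-3p and miR-29c-3p could not be told apart, with a difference of -0.12 and an interval of -0.77 to 0.53. These differences do not depend on the scaling between libraries. How fully the alignment separated reads of miR-29a-3p and miR-29c-3p was not tested. All 6 pairs of miR-29b-3p with another of the 7 miR-29 entries had a counting interval of the difference that left out 0. They reuse the same miR-29b-3p reads, and the share of such intervals over all miRNA pairs was not computed.

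The make-up of the seed family therefore differed between the libraries. miR-29b-3p held 6.88% of the reads with the miR-29 seed in the parental culture (6.64 to 7.14) and 1.40% in UM-SCC6-M (1.27 to 1.55). miR-29a-3p held 93.0% in the parental culture (92.8 to 93.3) and 98.5% in UM-SCC6-M (98.3 to 98.6). miR-29c-3p held 0.110% in the parental culture (0.080 to 0.148) and 0.126% in UM-SCC6-M (0.087 to 0.177). The summed level of the shared-seed strands was 5310.7 normalized reads in the parental culture and 3120.3 in UM-SCC6-M, a log2 ratio of -0.77 (-0.79 to -0.74). The sum was thus 1.70-fold lower, close to the ratio of miR-29a-3p, which supplies most of it. As a share of all miRNA reads, these strands made up 0.488% of the parental culture and 0.339% of UM-SCC6-M.

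**Figure D2:**
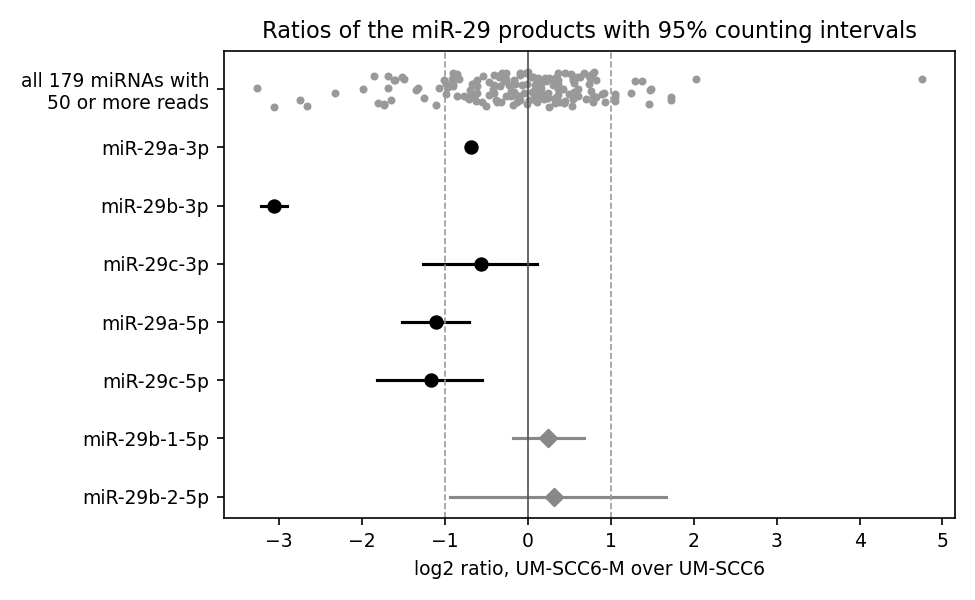
Log2 ratios, UM-SCC6-M over UM-SCC6, of the miR-29 members (black) and the 2 miR-29b 5p entries (grey diamonds) with exact 95% counting intervals, below a row of the 179 miRNAs that reach 50 normalized reads in either library (vertical scatter is for legibility). Dashed lines mark 2-fold. miR-29b-3p at -3.06 lies far to the left, while the intervals of both miR-29b 5p entries include 0.

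The 5p strands of miR-29a and miR-29c were both lower in UM-SCC6-M. miR-29a-5p had 9.31 normalized reads against 20.1 in the parental culture, from 78 and 151 reads, and a log2 ratio of -1.10 (-1.52 to -0.70). miR-29c-5p had 3.94 against 8.90, from 33 and 67 reads, and a log2 ratio of -1.17 (-1.82 to -0.55). Each was past 2-fold in its point value, but both intervals reached within 2-fold. At a lower minimum of 10 normalized reads, which miR-29a-5p reaches and miR-29c-5p does not, 2 of 3 members were at least 2-fold lower, where 15.6% of 288 miRNAs were. miR-29a-5p reaches this minimum through its parental value alone, and under scaling by total reads its log2 ratio was -0.86, which leaves 1 of 3. In the authors' deposited table neither miR-29a-5p (log2 fold change -1.1073) nor miR-29c-5p (-1.176) is marked.

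The 5p strands of miR-29b did not share the low value of its 3p strand. miR-29b-1-5p, from chromosome 7, had 12.8 normalized reads in UM-SCC6-M and 10.8 in the parental culture, from 107 and 81 reads. Its log2 ratio was 0.25, with an interval of -0.18 to 0.68. miR-29b-2-5p, from chromosome 1, had 1.67 against 1.33, from 14 and 10 reads, and a log2 ratio of 0.31 (-0.94 to 1.66). Neither showed a difference beyond counting error, and the point values lay on the opposite side of 0 from every member.

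In both libraries the chromosome 7 hairpin gave most miR-29b 5p reads. miR-29b-1-5p held 88.4% of the summed 5p reads in UM-SCC6-M (81.3 to 93.5) and 89.0% in the parental culture (80.7 to 94.6). These shares overlap in their counting intervals. Aligned from the first base of miR-29b-2-5p, the strands differ by C10U and C18U, so reads of the 2 hairpins can be distinguished.

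The balance of the arms was compared within each hairpin name, a quantity that does not depend on the scaling between libraries. For miR-29b, with the 5p reads of both hairpins summed, there were 30.2 3p reads per 5p read in the parental culture (2751 and 91) and 3.03 in UM-SCC6-M (367 and 121). The log2 balance of 3p over 5p in UM-SCC6-M minus that in UM-SCC6 was -3.31 (-3.74 to -2.89). Taken against the 5p strand of a single hairpin, the difference was -3.30 with miR-29b-1-5p (-3.75 to -2.86) and -3.37 with miR-29b-2-5p (-4.53 to -2.21).

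The other hairpins of the family did not show this. For miR-29a there were 246.2 3p reads per 5p read in the parental culture and 329.9 in UM-SCC6-M, a log2 difference of 0.42 (0.02 to 0.81) toward the 3p arm. For miR-29c the ratio was 0.657 in the parental culture and 1 in UM-SCC6-M, a difference of 0.60 whose interval of -0.28 to 1.48 included 0. The 3p reads of miR-29c were thus no more numerous than its 5p reads in either library, unlike those of miR-29a and miR-29b. The miR-29c balance rests on the separation of miR-29c-3p from miR-29a-3p, which was not tested.

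Both arms reached 10 normalized reads for 78 hairpin names. Of these, 14.1% had a balance lower by at least 1 on the log2 scale in UM-SCC6-M. miR-29b had the lowest value of all 78, followed by miR-339 at -1.80 and miR-126 at -1.67. The median over these names was -0.02. At the other end was miR-32, with a balance higher by 2.64 (2.30 to 2.97). miR-32 and miR-29b were the lowest 2 of the 179 miRNAs by the ratio of their major strand. The minor 3p strand of miR-32 had 169 against 235 reads, where its 5p strand had 282 against 2440.

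**Figure D3:**
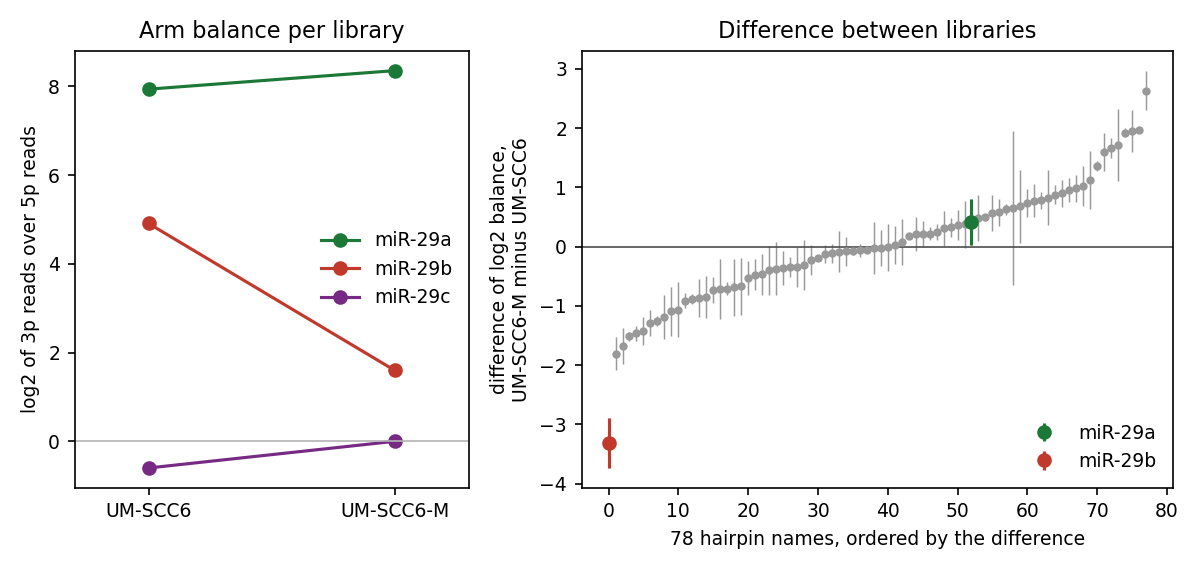
Left, log2 of 3p reads over 5p reads for miR-29a, miR-29b and miR-29c in each library. Right, the difference of that balance, UM-SCC6-M minus UM-SCC6, for 78 hairpin names with both arms at 10 or more normalized reads (bars are 95% counting intervals), where miR-29b is the lowest at -3.31 and miR-29a lies at 0.42.

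The products were then summed by locus, leaving out miR-29b-3p. The chromosome 7 products (miR-29a-3p, miR-29a-5p and miR-29b-1-5p) summed to 25917 against 37402 reads, a log2 ratio of -0.68 (-0.71 to -0.66). The chromosome 1 products (miR-29c-3p, miR-29c-5p and miR-29b-2-5p) summed to 80 against 121 reads, a log2 ratio of -0.75 (-1.18 to -0.33). The chromosome 7 sum consists almost wholly of miR-29a-3p. Products of a locus were not all alike. Against miR-29b-1-5p, the log2 ratio of miR-29a-3p was lower by 0.93 (0.51 to 1.35) and that of miR-29a-5p by 1.35 (0.78 to 1.92). Minus that of miR-29b-2-5p, the log2 ratio of miR-29c-5p gave -1.48 (-2.77 to -0.18). That of miR-29c-3p gave -0.88, and its interval of -2.19 to 0.44 included 0.

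Spread within a seed family was then set beside that of other families. In 23 families at least 2 miRNAs sharing bases 2 to 8 had 50 or more normalized reads in their higher library. The miR-29 family, with 2 such members, had the second widest spread of log2 ratios, 2.37, where the median family had 0.64. The family of miR-25, miR-32 and miR-92 was wider, at 4.08, from miR-32-5p at -3.27 to miR-92b-3p at 0.82. Next were miR-200a-5p and miR-200b-5p at 2.28 and the family of miR-99 and miR-100 at 2.21. With a seed of bases 2 to 7 the miR-29 family was the third of 24, behind the family that joins miR-96-5p and miR-182-5p, at 2.42. The lists of miRNAs sharing a seed differ in size, so these spreads are a description. miR-29b-3p and miR-32-5p, the low ends of the widest families, have 50 or more normalized reads in the parental culture alone.

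**Figure D4:**
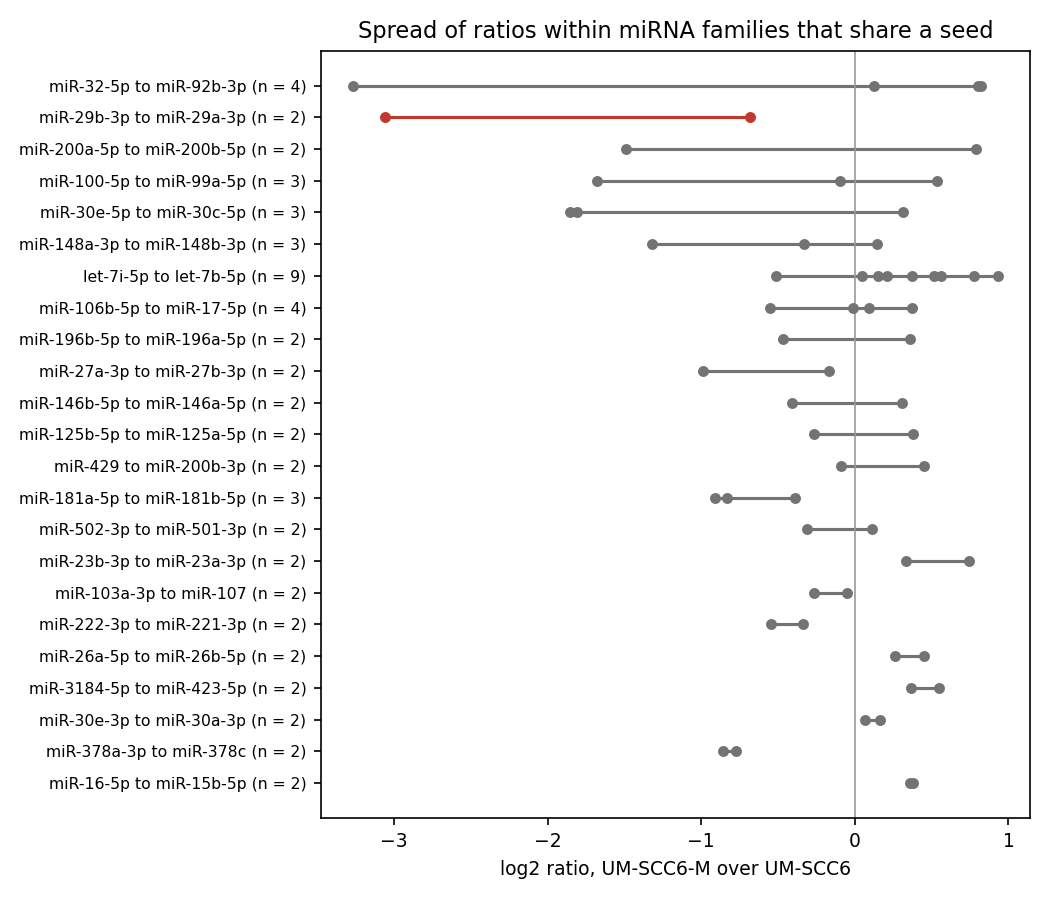
Log2 ratios of the miRNAs in each of 23 families that share bases 2 to 8 (points) and their range (lines), named by the lowest and highest member and ordered by range. The miR-29 family (red) spans -3.06 to -0.68 and is the second widest.

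By likeness of ratio, measured as the absolute difference of log2 ratios over the 2 libraries, the 4 miRNAs nearest to miR-29b-3p were miR-32-5p (0.21 away), miR-7974 (0.31), miR-218-5p (0.40) and miR-96-5p (0.73). miR-218-5p, which the series title names, stood at 16.0 against 101.7 normalized reads. Nearest to miR-29a-3p were miR-30d-5p, miR-192-5p, miR-24-3p and miR-1307-3p, between 0.006 and 0.034 away. With 2 libraries such likeness rests on a single ratio per miRNA.

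Other miRNAs reported to repress matrix transcripts went both ways, with 8 below and 10 above a log2 ratio of 0. Of 23 listed, 18 had at least 10 normalized reads, of which 3 were at least 2-fold lower and 0 at least 2-fold higher. Over all 288 miRNAs at that level 15.6% were at least 2-fold lower and 7.29% at least 2-fold higher. Of these 288, 151 lay below and 137 above 0. The median log2 ratio of the list was 0.11, beside -0.08 for all 288. miR-30a-5p, reported to repress the matrix regulator CTGF, had 24004.7 against 83973.5 normalized reads, 3.50-fold lower. Its relative miR-30e-5p was 3.62-fold lower, and the third, miR-143-3p, was 2.53-fold lower on 34 against 78 reads. miR-30c-5p, also listed and with the seed of miR-30a-5p, went the other way, at 8228.9 against 6634.3 normalized reads (log2 ratio 0.31). The abundant let-7g-5p (log2 ratio 0.15), miR-200b-3p (0.45) and let-7a-5p (0.52) lay above 0.

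Of 9 miRNAs reported to promote matrix deposition, 6 had at least 10 normalized reads, with a median of -0.17 that turned to 0.074 with both libraries scaled to their totals. miR-424-5p was 2.01-fold higher, at 34.0 against 16.9 normalized reads, and none was 2-fold lower. The most abundant were miR-21-5p (-0.17), miR-27b-3p (-0.17), miR-155-5p (0.24) and miR-192-5p (-0.69), and the small differences of miR-21-5p and miR-27b-3p changed sign with the scaling to totals.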

How the data were processed

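Per the labels' protocols, adapters were ligated to the small RNAs in 3 µg of total RNA per culture, and PCR products of 140 to 160 bp were cut from a gel. The authors deposited 1 table of 1213 entries. The submitters' processing notes name Bowtie, without a version. For the build, miRNA database release, counting and scaling, the method was not given in the sources used here.

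Deposited signal values are read numbers divided by 1 factor per library, called normalized reads. Each listed value was a whole number of steps of 0.119 (UM-SCC6-M) or 0.133 (UM-SCC6) within 7.2e-05 reads, and reads were recovered by division. Values below 1 were listed as 0. Where 1 column was 0, its reads came from the deposited log2 fold change, which gave whole reads within 0.00023 reads. The deposited p-value and q-value columns were copied only and are not reported, as they rest on 1 library per culture.

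Log2 ratios had 0.5 reads added to each library. Ratios and shares have Clopper-Pearson 95% intervals. Differences between ratios have normal-approximation intervals on the log scale from 4 read numbers. With 1 library per group no test was made. miRNA names were matched to RefSeq (GRCh38.p14), and 1037 of 1178 matched. Arms numbered by hairpin were summed under their common name. Alternatives were scaling by the median of ratios, a trimmed mean of M-values, total reads, or total reads less the 10 most abundant miRNAs, 5 reads added, other minimums and fold thresholds, exact conditional odds ratios and a shorter seed.

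The members, lists and tests were chosen with earlier results of these data known. Named miRNAs were all miR-29 entries, list members at least 2-fold apart and the 4 most abundant of each list, the 4 nearest by ratio to miR-29a-3p and miR-29b-3p, and families with a spread at least that of miR-29. miR-143-3p and miR-424-5p (below 50 normalized reads) and miR-30c-5p were named after their values were seen. So were the arm comparisons of miR-339, miR-126 and miR-32, and the families of miR-200a-5p and miR-99. On simulated libraries with counting error only, 97.1% of the intervals of 543 miRNAs held the true ratio. Python 3.11.15, numpy 2.4.6, pandas 2.3.3, scipy 1.17.1 and matplotlib 3.10.9 were used.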

Additional observations from a re-analysis of the deposited data

How the results depend on the processing

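All 7 miR-29 entries kept the sign of their log2 ratio under the 4 other scalings, with 5 reads added and in the deposited fold changes. Scaling to total reads moved every log2 ratio up by 0.24, which took miR-29b-3p to -2.82, miR-29a-3p to -0.44 and the summed shared-seed strands to -0.53. At these totals miR-29a-5p (-0.86) and miR-29c-5p (-0.92) were within 2-fold. Median of ratios gave -0.66 for miR-29a-3p and -0.74 for the sum, the total without the 10 most abundant miRNAs -0.62 and -0.70, and the trimmed mean of M-values -0.73 and -0.81. The matrix list's median was 0.36 with total reads, and that of the matrix-promoting list turned to 0.074. The count of miRNAs at least 2-fold lower was 23, and 45 at a minimum of 10 normalized reads, 15 at 200 and 46 for 1.5-fold. The count at least 2-fold higher was 13, and 21, 6 and 32 under those settings and 22 with total reads. That last alternative was chosen after seeing the data. Exact conditional odds ratios and no added reads moved no difference between members or arms beyond its interval. No paired analysis was possible because each culture gave 1 library. Counting error limits miR-29c-3p, miR-29c-5p and miR-29b-2-5p, each on fewer than 100 reads per library.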
